A study of Homo sapiens with 6 samples.

Results

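Of the 22041 H3K4me3 peaks called on chromosomes 1 to 22 and X in K562 cells with a control hairpin, 236 were overlapped by no H3K4me3 peak of the cells with a hairpin against Staufen 2, not even by 1 base. These shControl-only peaks were 1.07% of the control list, and they were chosen by that absence of overlap alone. In the other direction, 8758 of 27333 shStau2 peaks overlapped no shControl peak, which was 32.0% of that list. Because the H3K4me3 lists chose the members, their H3K4me3 fold enrichment, width, q-value and distance to shStau2 peaks are given as a description. The measurements the rule did not use were the H3K4me2 peak lists of the same cells, the position relative to annotated genes and the sequence of the promoters touched.

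The data are from chromatin immunoprecipitation followed by sequencing (ChIP-seq) in K562, an established human line from chronic myeloid leukaemia in blast crisis that carries the BCR-ABL1 fusion. One group expressed a short hairpin RNA directed at STAU2 (shStau2), the gene for the RNA-binding protein Staufen 2, and the other a control hairpin (shControl). A short hairpin RNA lowers its target's messenger RNA, which ChIP-seq does not measure, so the depletion itself could not be checked from the peak lists. Each hairpin had 1 library for H3K4me3, 1 for H3K4me2 and 1 input library, 6 libraries in all. With 1 library per mark and hairpin no test between hairpins could be made, and every difference below describes these libraries. The 95% intervals given with shares are exact (Clopper-Pearson) and reflect counting error alone.

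Trimethylation of lysine 4 of histone H3 (H3K4me3) marks nucleosomes beside active and poised gene starts, above all at promoters rich in CG dinucleotides, where it is deposited by SET1 and MLL complexes and read by factors that load the transcription machinery. Dimethylation (H3K4me2) is broader and also covers enhancers and the shoulders of promoters. The demethylase LSD1 acts on the dimethylated form, and KDM5 enzymes act on the trimethylated one. Staufen 2 binds structured RNA and affects its transport, translation and decay.

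After duplicate removal the H3K4me3 libraries held 26320758 tags under shStau2 and 30744332 under shControl, and the H3K4me2 libraries 27979370 under shStau2 and 26221869 under shControl. The inputs held 19921064 tags for shStau2 and 18826946 for shControl. Across the 15552 H3K4me3 peaks with a single partner in the other list, fold enrichment had a median of 31.0 under shStau2 and 15.0 under shControl. All 12 genes listed as K562 markers carried H3K4me3 at a gene end in both lists, as did 1 of 4 hepatocyte and 1 of 4 fibroblast genes. None of the 5 T-cell or 4 B-cell genes did in either list.

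Promoter sequences are shown for the 2 members of highest fold enrichment, at SYP and HPCAL4, and for the 5 start sites that a member of ordinary background covered with no shStau2 peak within 1 kb. Each is the RefSeq window on GRCh38.p14 from 250 bases before to 50 bases after the annotated start, read 5′ to 3′ on the strand of the gene, with each CG in capitals. SYP (minus strand) is chrX:49200144-49200443, HPCAL4 (minus) chr1:39691384-39691683, SLC8A2 (minus) chr19:47471844-47472143 and ARSI (minus) chr5:150302856-150303155. HMX2 (plus) is chr10:123147886-123148185, NPFFR1 (minus) chr10:70283955-70284254 and SIGLEC5 (minus) chr19:51630352-51630651.
SYP: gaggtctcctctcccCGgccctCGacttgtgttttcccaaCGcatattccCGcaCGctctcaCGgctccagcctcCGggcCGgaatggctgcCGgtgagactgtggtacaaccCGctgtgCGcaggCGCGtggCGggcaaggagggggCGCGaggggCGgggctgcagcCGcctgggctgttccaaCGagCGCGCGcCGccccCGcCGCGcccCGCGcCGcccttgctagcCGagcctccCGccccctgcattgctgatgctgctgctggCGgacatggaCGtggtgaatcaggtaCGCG
HPCAL4: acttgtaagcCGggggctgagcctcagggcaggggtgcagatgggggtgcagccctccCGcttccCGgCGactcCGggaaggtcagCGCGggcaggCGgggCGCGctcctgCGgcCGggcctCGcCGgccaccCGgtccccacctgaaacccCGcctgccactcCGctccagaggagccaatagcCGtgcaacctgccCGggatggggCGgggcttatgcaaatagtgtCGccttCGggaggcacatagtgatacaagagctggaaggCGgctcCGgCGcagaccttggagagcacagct
SLC8A2: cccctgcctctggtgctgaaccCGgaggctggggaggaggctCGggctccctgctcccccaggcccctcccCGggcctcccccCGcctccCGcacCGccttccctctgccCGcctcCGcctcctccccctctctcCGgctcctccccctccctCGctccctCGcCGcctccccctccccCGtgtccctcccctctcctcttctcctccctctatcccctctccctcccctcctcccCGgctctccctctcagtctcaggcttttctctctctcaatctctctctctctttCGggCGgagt
ARSI: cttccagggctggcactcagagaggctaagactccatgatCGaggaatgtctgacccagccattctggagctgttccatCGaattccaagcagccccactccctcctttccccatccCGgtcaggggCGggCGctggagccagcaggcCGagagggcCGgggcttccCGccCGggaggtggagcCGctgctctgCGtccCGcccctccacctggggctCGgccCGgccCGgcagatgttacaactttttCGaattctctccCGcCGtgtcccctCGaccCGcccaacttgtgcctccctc
HMX2: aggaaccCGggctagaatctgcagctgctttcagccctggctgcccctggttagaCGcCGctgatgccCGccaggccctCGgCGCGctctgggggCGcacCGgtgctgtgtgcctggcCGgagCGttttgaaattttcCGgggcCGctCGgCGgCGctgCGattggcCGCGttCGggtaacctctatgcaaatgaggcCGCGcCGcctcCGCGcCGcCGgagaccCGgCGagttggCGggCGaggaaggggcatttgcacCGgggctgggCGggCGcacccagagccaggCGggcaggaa
NPFFR1: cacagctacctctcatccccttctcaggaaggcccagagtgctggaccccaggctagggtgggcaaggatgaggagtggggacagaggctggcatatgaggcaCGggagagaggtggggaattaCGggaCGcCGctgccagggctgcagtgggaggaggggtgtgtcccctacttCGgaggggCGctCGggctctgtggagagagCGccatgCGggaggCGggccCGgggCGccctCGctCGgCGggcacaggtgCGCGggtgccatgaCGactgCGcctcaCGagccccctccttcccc
SIGLEC5: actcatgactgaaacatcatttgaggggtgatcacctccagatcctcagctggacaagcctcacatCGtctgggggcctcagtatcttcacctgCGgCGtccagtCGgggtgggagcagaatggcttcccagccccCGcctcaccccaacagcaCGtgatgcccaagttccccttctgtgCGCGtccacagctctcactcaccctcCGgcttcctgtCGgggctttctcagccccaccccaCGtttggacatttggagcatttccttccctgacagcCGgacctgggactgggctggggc
CG is its own reverse complement, so the count is the same on both strands. SYP and HMX2 each held 35 CG in 300 bases, a number that 14.2% of the 34961 promoter windows reached or passed. HPCAL4 held 25, ARSI and NPFFR1 20 each, SLC8A2 16 and SIGLEC5 12. Over the 17 promoter windows that members touched, the median was 20.0 CG, against 14 over all windows, of which 96.1% held at least 1. The range among the 17 ran from 3 CG at RNASE1 to 43 at SCAMP5, so CG-poor and CG-rich promoters were both present. H3K4me3 peaks as a class lie at CG-rich promoters, and that background is not separated from the members' values here.

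The members were small peaks of low enrichment. Their median width was 247 bases (range 200 to 1226), against 1001 bases for the other 21805 shControl peaks. Fold enrichment, the authors' ratio of ChIP pileup to local background, had a median of 4.05 (range 1.43 to 11.4) in members and 13.8 in the others. Their summits held a median of 21 fragments, from 13 to 183, while the smallest called peak held 11 fragments under shStau2 and 12 under shControl. Small size was not particular to members. The shStau2-only peaks had medians of 321 bases, fold 5.30 and 19 fragments. In −log10 q, the members spanned 1.35 to 26.5 with a median of 4.17. The smallest width the caller reports, 200 bases, was met by 35 members or 14.8%, against 5.63% of the 4776 other shControl peaks with fold enrichment below 6, called weak others from here on. The weak others had a median width of 309 bases.

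The share of shControl peaks that were members fell with each step in fold enrichment. It was 33.3% below 2-fold (14 of 42), 11.7% from 2 to 3, 8.30% from 3 to 4, 4.28% from 4 to 5 and 1.42% from 5 to 6. From 6 to 8 it was 0.425%, and at 8-fold or more 2 of 14686 peaks were members. Those 2 were the peaks at SYP and HPCAL4.

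**Figure D1:**
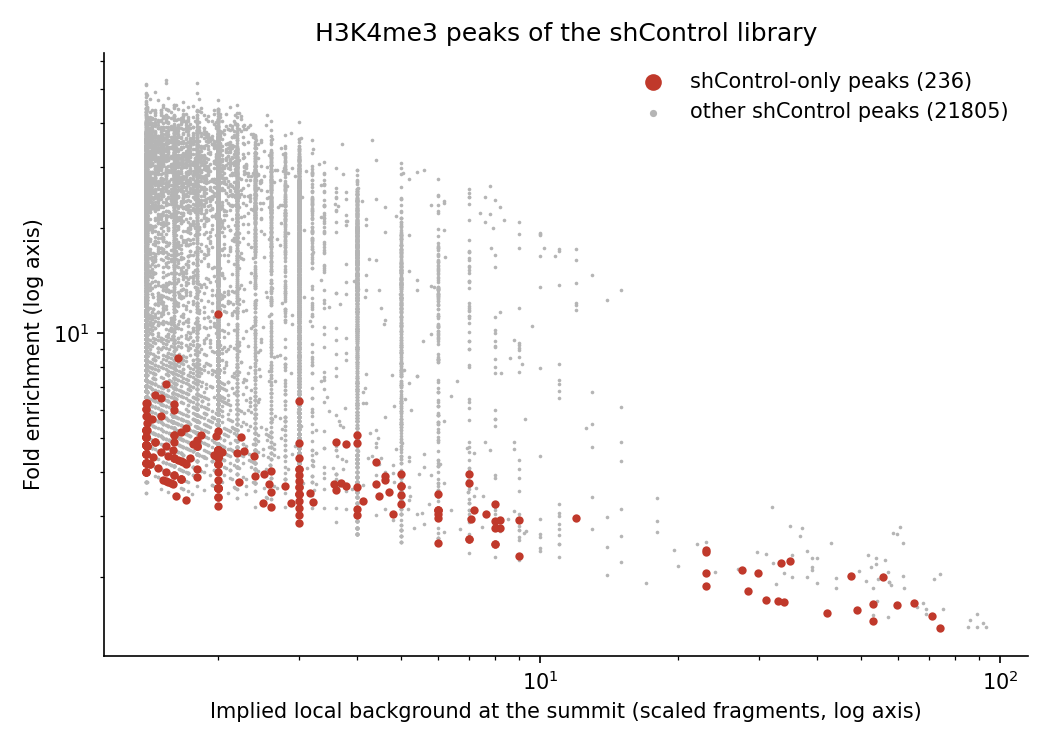
Each point is 1 H3K4me3 peak of the shControl library, with its fold enrichment against the local background implied by its pileup and fold, both on log axes; red points are the 236 shControl-only peaks and grey points the other 21805. The red points lie along the lower edge of the cloud at every background level, with SYP at 11.4 and HPCAL4 at 8.50 above the rest. A group at backgrounds of 23 to 74.0 scaled fragments has fold values of 1.43 to 2.39.

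At the edge of the rule, the nearest members were separated from a shStau2 peak by a handful of bases. The peak chr3:120090836-120091056, at fold 4.51, had 0 bases between it and a shStau2 peak, and chr18:808600-808858, at fold 3.17, had 1 base. Just outside, chr7:64998806-64999024, at fold 3.72, overlapped a shStau2 peak by 1 base and chr19:47924629-47924988, at fold 4.23, by 4. Within 50 bases of the rule there were 18 members on the inside and 18 shControl peaks on the outside.

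Many of the members lay next to a shStau2 H3K4me3 peak. The nearest one was a median of 1184 bases away, within 100 bases for 32 members, within 1 kb for 111 (47.0%, 40.5 to 53.6) and within 10 kb for 171. For 65 members it was over 10 kb away and for 10 over 100 kb. The shStau2-only peaks stood farther from the other list, with a median of 26598 bases and 17.9% within 1 kb of a shControl peak. These distances were taken to lists of unlike length, 27333 peaks for shStau2 and 22041 for shControl, and a longer list shortens them. Of the 111 members with a shStau2 peak within 1 kb, 63 flanked one that other shControl peaks also overlapped, and 48 flanked a shStau2-only peak. The 48 and their neighbours were of similar size, with a median fold of 3.90 in the members and 3.98 in the shStau2-only neighbours.

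**Figure D2:**
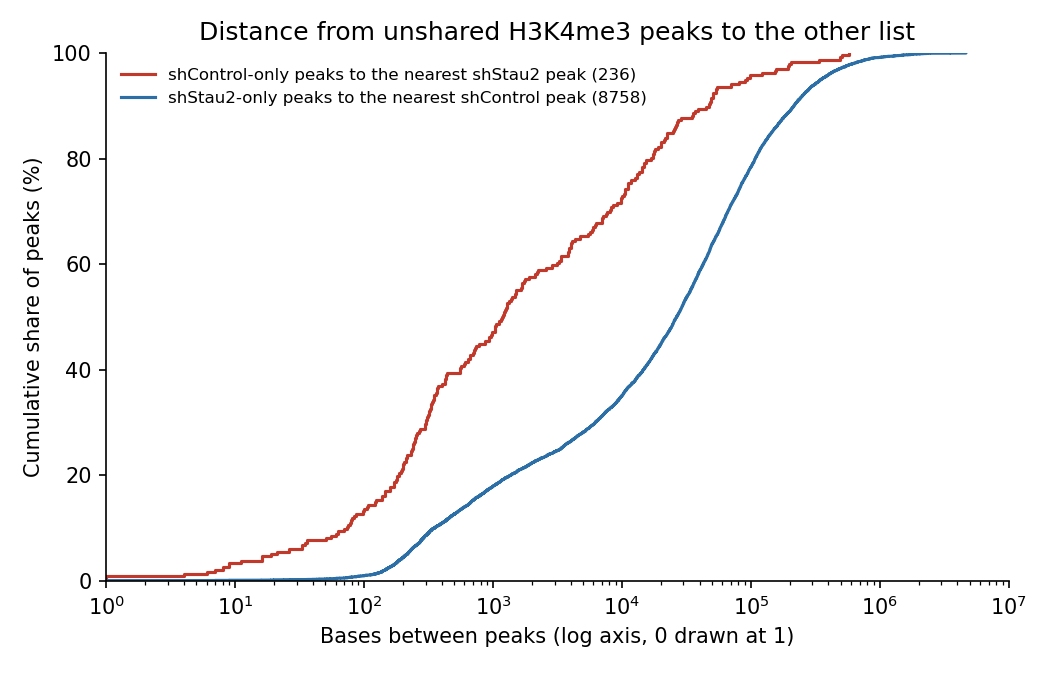
Cumulative share of peaks, in percent, against the number of bases to the nearest H3K4me3 peak of the other list on a log axis, for 236 shControl-only and 8758 shStau2-only peaks. The shControl-only curve lies to the left, reaching 47.0% at 1 kb where the shStau2-only curve has reached 17.9%. The shStau2 list, to which the shControl-only peaks were measured, is the longer one.

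Members were also described by local background. The background implied at a summit was set against the genome background of the input, 1.48 scaled fragments for shStau2 and 1.39 for shControl, and called high from 2 times that value. It was high for 90 members (38.1%, 31.9 to 44.7), against 31.0% of the weak others, 23.8% of all other shControl peaks and 15.1% of the shStau2-only peaks. At 8 times the genome background or more, 23 of 115 shControl peaks were members (20.0%, 13.1 to 28.5), and between 4 and 8 times 23 of 375 (6.13%). Between 2 and 4 times 44 of 4789 were members (0.919%, 0.668 to 1.23), and below 2 times 146 of 16762 (0.871%). The share thus rose only from 4 times upward, and the limit of 2 times is a working cut. The shStau2-only share did not rise in this way, with 11 of 105 shStau2 peaks (10.5%, 5.35 to 18.0) at 8 times or more and 33.5% below 2 times. The 146 members below 2 times are called low-background from here on. Their median distance to the nearest shStau2 peak was 3330 bases, against 967 bases for the high-background members. All background values are in scaled fragments, while fragments counted at summits are unscaled. In the H3K4me3 libraries 1 counted fragment equals 0.757 scaled fragments under shStau2 and 0.612 under shControl.

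**Figure D3:**
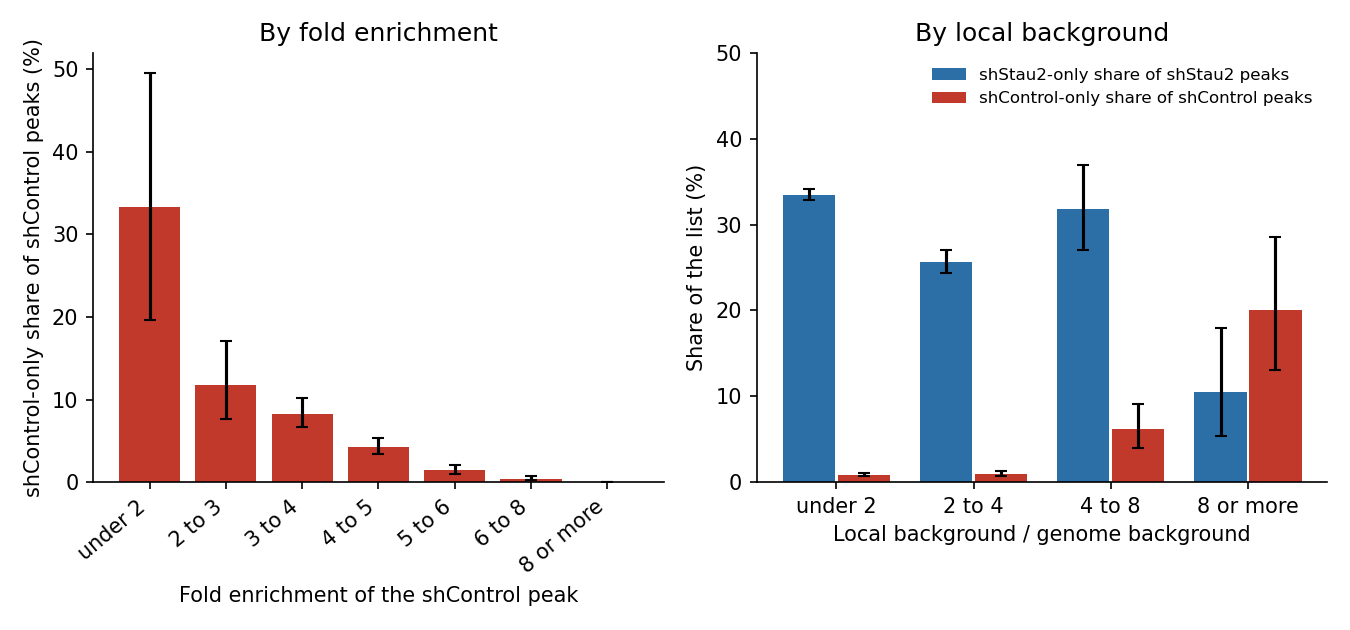
Left, percent of shControl H3K4me3 peaks that were shControl-only by band of fold enrichment; right, percent of the shStau2 list that was shStau2-only (blue) and of the shControl list that was shControl-only (red) by local background as a multiple of the genome background, with 95% Clopper-Pearson intervals as error bars. The red bars fall from 33.3% to 0.0136% across fold bands and climb from 0.871% to 20.0% across background bands, while the blue bars run between 33.5% and 10.5%. In the highest background band, 19 of the 23 shControl-only peaks lay in and around the 45S ribosomal RNA genes of chromosome 21.

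Many of the high-background members sat in repeated gene arrays. Chaining members that lay within 100 kb of each other gave 10 clusters of 3 or more, which held 67 members and 159 shControl peaks, so 42.1% of the peaks there were members. Outside the clusters the share was 0.772% (169 of 21882). A cluster runs from its first to its last member, which by itself favours shControl in the counts and covered bases within it. Chromosome 21 had the largest share of any chromosome, 23 of 389 peaks (5.91%), of which 21 were high-background. Short reads from near-identical copies cannot be placed on one copy, so values in these arrays belong to the array and not to a single gene.

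The 45S genes on chromosome 21, RNA45SN1, RNA45SN2 and RNA45SN3, encode the precursor of the 18S, 5.8S and 28S ribosomal RNAs, and 19 members lay in and around them. In that window the shStau2 library had 58 peaks over 35710 bases and the shControl library 76 peaks over 43249 bases, while the whole lists covered 36149083 bases under shStau2 and 26425382 under shControl. Median fold was 2.01 under shStau2 and 2.01 under shControl, and median local background 54.5 fragments under shStau2 and 52.0 under shControl. Only 4 of the 58 shStau2 peaks overlapped no shControl peak, whereas 19 of the 76 shControl peaks were members, at fold 1.43 to 2.39. RNA45SN2 carried 5 shStau2 peaks over 1820 bases and 8 shControl peaks over 3827 bases, and RNA45SN1 4 over 1026 under shStau2 and 5 over 2442 under shControl. RNA45SN3 carried 6 peaks in each list, over 2718 bases under shStau2 and 3638 under shControl.

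**Figure D4:**
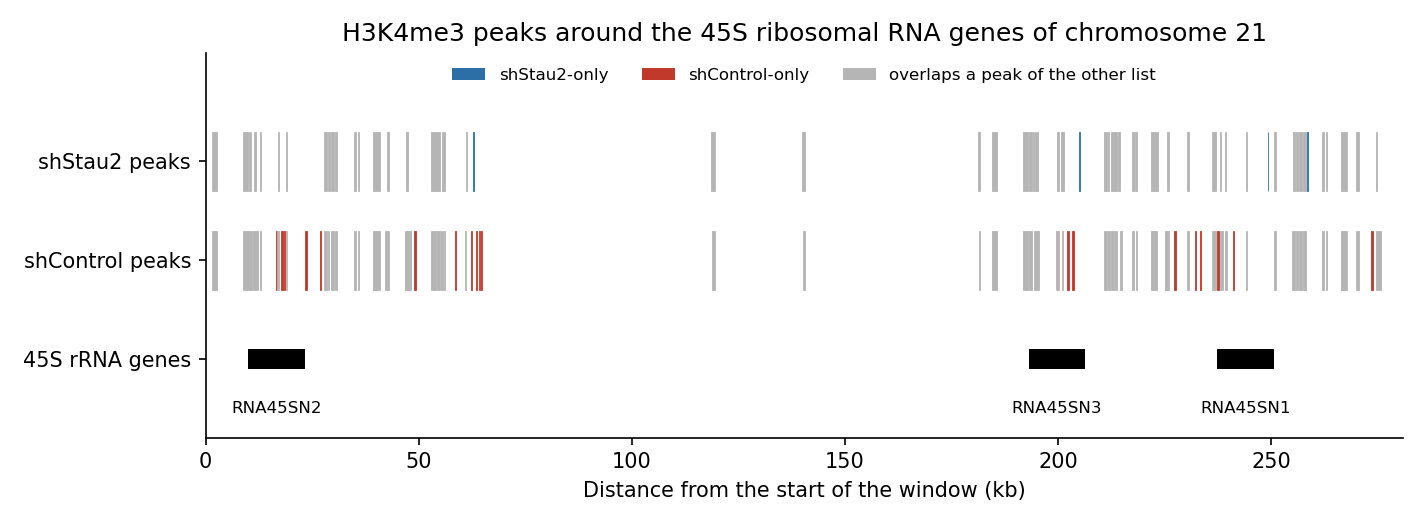
H3K4me3 peaks drawn to scale along the 45S ribosomal RNA window of chromosome 21, in kb from its start, with shStau2 peaks above shControl peaks and the 3 annotated 45S genes as black bars. Grey peaks overlap a peak of the other list; 4 blue peaks are shStau2-only and 19 red peaks shControl-only, and the red ones fall in gaps or at the sides of grey blocks.

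Similar arrays on other chromosomes gave the next groups. One was at the end of chromosome 4q, in the 68.7 kb from the first to the last member. This stretch takes in copies of the DUX4 homeobox gene from the D4Z4 repeat, and also FRG2 and other genes. There the shStau2 list had 13 peaks over 6693 bases, of fold up to 41.1. The shControl list had 18 peaks over 8328 bases, of fold up to 23.2, and 8 of the 18 were members. The related 10q array held 16 shStau2 peaks over 7382 bases and 16 shControl peaks over 8227 bases, 6 of them members. Of 10 DUX4-family genes annotated in a wider 4q window, 9 lay under a shStau2 peak, 6 under a shared shControl peak and 5 under a member. Of 14 in a wider 10q window, the numbers were 11, 10 and 3. The widest member, 1226 bases at chr10:133753237-133754462 with fold 2.95, was in this 10q array, 1662 bases from a shStau2 peak. On chromosome 19, in the 11.8 kb from the first to the last member around the long noncoding RNA gene CYKILR, the 3 shStau2 peaks were all shStau2-only, with a median fold of 3.47 over 1140 bases. The 4 shControl peaks there were all members, with a median fold of 3.27 over 1307 bases. The 567-base peak among these 4, chr19:36298940-36299506, whose nearest protein-coding gene is the zinc finger gene ZFP14, was the widest member after those at 10q, OR2AT4 and SYP.

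In a 113 kb stretch of chromosome 1 across TTC34, a gene named for its tetratricopeptide repeats, the shStau2 list had 26 peaks over 8437 bases, 8 of them shStau2-only. The shControl list had 34 peaks there over 11950 bases, 16 of them members. Median fold was 3.06 under shStau2 and 3.67 under shControl, and the median background 8.0 fragments under shStau2 and 5.80 under shControl. The part of the background in the fold at this place was not tested. The member chr1:2674419-2674836 had fold 6.37, the highest of the high-background members. None of the 26 shStau2 peaks and none of the 16 members there overlapped a listed H3K4me2 peak.

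A run of 12 annotated small nuclear RNA genes on chromosome 17 held 5 members with fold 2.76 to 3.69, each 560 to 4734 bases from such a gene and none over one. In the window from the first to the last of these members, the 7 shStau2 peaks shared with the other list had a median fold of 21.6, and the 7 shControl peaks that were not members 10.2. Of the 12 genes, 2 lay under a shStau2 peak and 1 under such a shControl peak. Covered bases were 7435 under shStau2 and 7848 under shControl. Around ABL1, within 500 kb on either side, 3 of 29 shControl peaks were members at backgrounds of 8.20 to 9.0 fragments, and 20 of 44 shStau2 peaks were shStau2-only. Around BCR none of 12 shControl peaks was a member.

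H3K4me2, which took no part in choosing the members, was present at some of them and to the same extent under each hairpin. Both deposited H3K4me2 lists stop partway, so the comparison covered 16 whole chromosomes and part of chromosome 4, with 171 of the 236 members. An H3K4me2 peak overlapped 90 of the 171 under shStau2 (52.6%, 44.9 to 60.3) and 90 under shControl (52.6%, 44.9 to 60.3). It was there under both for 87, under shStau2 only for 3, under shControl only for 3 and under neither for 78. Thus 87 of the 90 marked under shControl (96.7%, 90.6 to 99.3) were also marked under shStau2, while of all 60090 shControl H3K4me2 peaks 88.8% overlapped a shStau2 one and 11.2% did not. Among weak others marked under shControl, 99.9% were also marked under shStau2.

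The exceptions were few, and examples follow. Under shControl only, H3K4me2 covered the members inside TTLL10 (fold 8.33), near YTHDF1 (6.41) and near UQCRFS1 (4.17). Under shStau2 only, it covered the one inside CASZ1 (5.95) and one in the chromosome 17 small nuclear RNA array (2.88). CASZ1 is a zinc finger transcription factor, and UQCRFS1 is the Rieske iron-sulphur subunit of respiratory complex III.

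Members without H3K4me2 were concentrated at high background. Of 70 high-background members in the compared region, 59 (84.3%) had no H3K4me2 peak under either hairpin, whereas 7.48% of weak others at high background had none. Many of the 59 lay in a few arrays, so they were not independent sites. No H3K4me2 peak overlapped the 19 members in and around the 45S genes, the 6 at 10q or the 4 around CYKILR. The sets were also unmatched on background. Median background was 4.30 times the genome background over all 90 high-background members and 2.58 times over all 1480 such weak others. How far arrays and background account for the gap was not tested. Of 101 low-background members, 78.2% had an H3K4me2 peak under shStau2 and 79.2% under shControl. Under both hairpins at once, 76.2% of low-background members had one, against 96.9% of low-background weak others and 95.2% of all weak others. The shStau2-only H3K4me3 peaks had one under shStau2 in 92.4% of cases and under shControl in 86.1%. Low-background members with a shStau2 H3K4me3 peak within 1 kb were marked with H3K4me2 under both hairpins in 40 of 44 cases (90.9%), and those with none within 10 kb in 24 of 39 (61.5%). Where a member had H3K4me2 under both hairpins, it usually lay wholly inside a single larger peak, in 80 of 87 under shStau2 and 84 of 87 under shControl. These H3K4me2 peaks had a median width of 1197 bases under shStau2 and 1319 under shControl, against 642 under shStau2 and 623 under shControl for all H3K4me2 peaks in the compared region.

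At 68 H3K4me2 peaks that paired 1 to 1 and covered a member in both lists, the median fold enrichment was 12.5 under shStau2 and 14.1 under shControl. The median ratio of shStau2 to shControl was 0.964, with quartiles of 0.696 and 1.23, and 32 of the 68 (47.1%) were higher under shStau2. Over all 40029 paired H3K4me2 peaks the median ratio was 1.17 with 68.6% higher under shStau2, and over the 2331 that covered a weak other it was 1.29 with 80.1% higher. The members' ratio was 1.06 with equal numbers of H3K4me3 peaks in both lists, so its direction depended on how members were chosen. It was 0.881 with no shStau2 peak within 1 kb, 0.908 with none within 10 kb and 0.918 with peaks merged. With 50% reciprocal overlap the ratio was 1.27, but 6083 of those 6208 peaks lay within 1 kb of a shStau2 peak, at a median of 0 bases. At the 16 pairs over gene-end members it was 1.13, with 9 higher under shStau2. Pairs beside a shStau2 H3K4me3 peak had a ratio of 1.18 (28 pairs at low-background members within 1 kb), and those over 10 kb from one had a ratio of 0.928 (21 pairs). With a single library per hairpin these ratios carry no replicate error.

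The local background enters the fold as its divisor, so a higher background under shStau2 lowers the H3K4me2 ratio by construction. At the 68 pairs the implied background had a median of 2.00 fragments under shStau2 and 1.54 under shControl, with a median ratio of 1.12, against 1.03 at pairs over weak others and 1.05 at all pairs. At the 21 pairs far from a shStau2 H3K4me3 peak the background ratio was 1.21. The ChIP fragments at the summits of the 68 pairs had a median of 60.0 under shStau2 and 52.0 under shControl. They were thus higher under shStau2 although the fold was not. This was not particular to members. The medians were 71.0 under shStau2 and 55.0 under shControl over weak others, and 34.0 and 28.0 at all pairs. These counts are not scaled for library depth. Each hairpin's input served both marks, so the H3K4me2 fold is not wholly independent of the calls that chose the members, and the part of the background in the result was not tested.

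**Figure D5:**
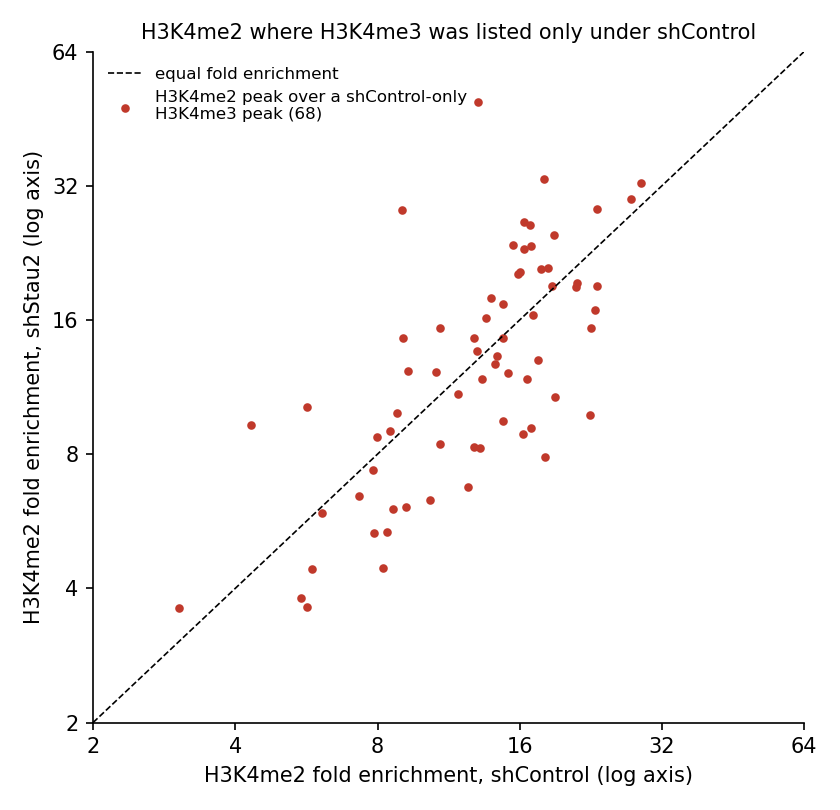
H3K4me2 fold enrichment under shStau2 against that under shControl, on log axes, at the 68 paired H3K4me2 peaks that cover a shControl-only H3K4me3 peak; the dashed line marks equal values. The points spread on both sides of the line, 32 of them above it, with ratios from 0.433 to 3.77.

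Members were seldom at gene ends. Near the annotated ends of protein-coding genes, at 1 kb or less, lay 30 members (12.7%, 8.74 to 17.6), 80 lay elsewhere inside such a gene and 126 (53.4%) outside. Of the other shControl peaks 58.6% were at a gene end, of the weak others 23.2% and of the shStau2-only peaks 13.7%. Low-background members were at a gene end in 25 of 146 cases (17.1%), high-background ones in 5 of 90 (5.56%). Measured from annotated transcription starts, with chromosome 8 left out, 39 of 228 members (17.1%) were within 1 kb, against 25.3% of weak others and 15.6% of shStau2-only peaks.

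Of the 30 genes with a member at an end, 8 had it beside a shStau2-only peak, 11 beside a shStau2 peak shared with the shControl list, and 11 with no shStau2 peak within 1 kb. In the region with H3K4me2 data, 19 of 22 were marked by H3K4me2 under shStau2 and 19 under shControl. The shStau2 list gives no value at a member, so each gene below has a shControl H3K4me3 value and the distance to the nearest shStau2 peak.

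The strongest member covered the start of SYP, which encodes synaptophysin, a membrane protein of synaptic vesicles. At chrX:49199646-49200233 it held 54 fragments, with fold 11.4 and −log10 q of 26.5. A shStau2-only peak of fold 5.30 began 180 bases away at chrX:49200414-49200644. That peak held 16 fragments. Each library thus had an H3K4me3 peak within 1 kb of the SYP start, on opposite sides of a short gap.

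HPCAL4, encoding a hippocalcin-like neuronal calcium sensor, had the same arrangement. Its member at chr1:39691152-39691441 held 35 fragments at fold 8.50, and a shStau2-only peak of fold 6.25 lay 55 bases away at chr1:39691497-39691774. The H3K4me2 peak over it had fold 13.0 and a width of 914 bases under shStau2, against 26.4 and 1146 bases under shControl. The shStau2 H3K4me3 peak had a pileup of 26.5 with 35 fragments and an implied background of 3.40, against 21.4, 35 fragments and 1.64 at the shControl peak, so its H3K4me3 pileup was not the lower one although its fold was.

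The other 6 members beside a shStau2-only peak were weaker. CYP2A13, a cytochrome P450 of the airway, had fold 5.28 with a shStau2 peak of 7.13 at 78 bases. PCGF1, a Polycomb subunit, had 4.21 beside a peak of 3.87, and RPL13, a protein of the large ribosomal subunit, had 3.80 beside one of 3.87. These members were not at the gene starts, which lay 7281 bases away for CYP2A13, 1976 for PCGF1 and 5356 for RPL13. The starts of PCGF1 and RPL13 lay under a shStau2 peak and another shControl peak. MAP1LC3B2, an autophagy-related LC3 copy, had 3.62 beside 3.87. The peaks at PSORS1C2 (3.46) and FAM246C (3.28) were at high background, as was that at MAP1LC3B2.

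Among the 11 with no shStau2 peak within 1 kb, several covered an annotated start directly. SLC8A2, a sodium-calcium exchanger of the plasma membrane, had 23 fragments at chr19:47471589-47471911 with fold 6.30, and the nearest shStau2 peak was 8124 bases away. Its H3K4me2 fold was 13.0 under shStau2 and 17.5 under shControl. ARSI, an arylsulfatase family member, had 24 fragments at chr5:150302758-150302975 with fold 6.04 and no shStau2 peak for 54250 bases, and its shControl H3K4me2 fold was 8.71, with chromosome 5 outside the shStau2 list.

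HMX2, a homeobox transcription factor of inner ear and hypothalamus development, had 19 fragments at chr10:123148077-123148322 with fold 5.28, and the nearest shStau2 peak was 5969 bases away. Its H3K4me2 ran the other way, with fold 9.32 under shStau2 and 4.32 under shControl. NPFFR1, a receptor for neuropeptide FF, had 21 fragments at chr10:70283770-70284073 with fold 4.95, lay 49515 bases from a shStau2 peak and had no H3K4me2 peak under either hairpin. SIGLEC5, a sialic acid-binding receptor of myeloid cells, had 16 fragments at chr19:51630271-51630524 with fold 3.86, and H3K4me2 of 5.35 under shStau2 and 8.39 under shControl.

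UNC13A, which primes synaptic vesicles for release, had fold 4.62 with H3K4me2 of 12.3 under shStau2 and 13.7 under shControl. IGLON5, a cell adhesion protein of the nervous system, had 4.51 with H3K4me2 of 6.44 under shStau2 and 7.31 under shControl. At TP63, a p53-family transcription factor of epithelia, a member of 17 fragments and fold 4.77 lay 365 bases from an annotated end of the gene and 573018 bases from any shStau2 peak, the farthest of all members, without H3K4me2. Of the 11, those at TAF11L10 (3.02) and PCDHA1 (3.01) were at high background.

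The 11 members beside a shared shStau2 peak were at the margins of stronger peaks. At SARAF, a regulator of store-operated calcium entry, the member had fold 6.52 and the shStau2 peak 171 bases away 71.5. At BLOC1S2, a subunit of the BLOC-1 complex of lysosome-related organelles, they had 5.28 and 47.2, and at DDX46, an RNA helicase of the spliceosome, 4.73 and 62.1. TSPAN4, a tetraspanin, had a member of 5.02 at 33 bases from a shStau2 peak of 71.9, and its H3K4me2 fold was 49.3 under shStau2 and 13.1 under shControl. At ABI1, an actin regulator in the WAVE complex, H3K4me2 was 9.17 under shStau2 and 16.9 under shControl. The start sites of BLOC1S2, DDX46, SCAMP5, ABI1, CYP26A1 and PRRX2 lay under a shStau2 peak and another shControl peak, so each of these genes had H3K4me3 at its start in both lists. For TSPAN4 this held at an annotated start farther from the member. No other shControl peak reached the TSPAN4 start 117 bases from the member, as the nearest one was 136 bases from that member. The members at LRRC75A (4.25) and RNASE1 (3.60), a secreted ribonuclease, were of the same group.

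Away from gene ends, the strongest members were at chr11:75102734-75103321 near the olfactory receptor gene OR2AT4 (fold 7.14) and inside TLE2 (6.63), a Groucho-family corepressor. The first had H3K4me2 of 10.3 under shStau2 and 13.0 under shControl, and the second 9.78 under shStau2 and 22.6 under shControl. The member near GSTP1, a glutathione transferase, had 5.68, with H3K4me2 of 19.1 under shStau2 and 23.4 under shControl. Beside HPCAL4 and GSTP1, the members with the strongest shControl H3K4me2 were near NFIA (30.5 under shStau2, 31.3 under shControl), at ATP8B2 (32.4 under shStau2, 28.8 under shControl), inside RCC1 (29.8 under shStau2, 27.5 under shControl) and inside DLGAP1 (29.9 under shStau2, 25 under shControl). All 4 were within 251 bases of a shStau2 H3K4me3 peak.

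No gene of the lists of 30 erythroid, 30 myeloid, 20 stem cell and leukaemia, 39 HOX or 25 neuronal genes had a member at an end. Of all 19974 protein-coding genes, 30 had one (0.150%), so a count of 0 among these 144 genes is near the background and is no result about the lists. HMX2 was the single such gene of 36 developmental homeobox genes outside the HOX clusters. Of 15 genes of the LSD1 complex list, PHF21A, which encodes the BHC80 subunit that reads unmethylated H3K4, contained a member of fold 4.32, which lay 330 bases from a shStau2 peak of fold 53.3. Its H3K4me2 fold was 19.1 under shStau2 and 18.8 under shControl.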

How the data were processed

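ChIP-seq peak lists of 4 libraries from K562 cells were used, 1 for each mark and hairpin, with groups taken from the sample titles. Per the submitters' processing notes, Bowtie2 (version not given in the sources used here) aligned the reads to hg38. Per the file headers, MACS2 2.1.2 called peaks in each library with its hairpin's input as control, a q-value limit of 0.05, fragments of 200 bases, an effective genome size of 2.70e+09 and 1 tag kept per position. Each row of the deposited lists holds a peak's summit pileup (its signal), fold enrichment (a ratio to local background), −log10 p-value and q-value, and width. These are the authors' values of the peaks themselves. The sources used here mention no spike-in.

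Implied background was computed as (pileup + 1) / fold − 1, in the scaled units of the pileup. Fragments at summits were computed as pileup divided by the value of 1 fragment. All pileups came out whole within 0.05 (100%). The lowest implied background in the H3K4me3 lists was 1.48 for shStau2 and 1.39 for shControl. Peaks overlapped when they shared 1 base or more. The H3K4me2 lists hold 65507 peaks each and end on chromosome 4 at 185623562 (shStau2) and chromosome 6 at 27590792 (shControl), so H3K4me2 was compared up to the earlier end. Genes and promoter windows were from RefSeq on GRCh38.p14, the build of the peaks, with 19974 protein-coding genes.

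Genes were named by rule: each gene with a member within 1 kb of an end, the 6 members highest in fold, width, −log10 q and shControl H3K4me2 fold, and members touching a listed gene. Other genes and arrays were named after their values were seen. Some genes taken by the rule are not reported here. The members, lists and alternatives were chosen with earlier results of these data known. Overlaps were tested on simulated lists and differed from bedtools 2.31.1 by 0 peaks. Computation used Python 3.11.15 with pandas 2.3.3 and scipy 1.17.1, and plots matplotlib 3.10.9. Library depths are given with the results.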

Additional observations from a re-analysis of the deposited data

Results flagged for a closer look

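Outside chromosomes 1 to 22 and X, which the comparison covered, the unplaced contigs held 221 shStau2 H3K4me3 peaks and 228 shControl ones. Of the shControl ones, 48 overlapped no shStau2 peak (21.1%), with a median fold of 2.00 and a median implied background of 29.1 fragments. Past the end of the shStau2 H3K4me2 list, on chromosome 5 and the start of chromosome 6, 10 of 12 members overlapped a shControl H3K4me2 peak, for which no shStau2 value was compared.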

How the results depend on the processing

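No replicates exist, so no library could be left out, and no paired analysis was possible because each mark and hairpin had 1 library and no result comes from a test. Of 69 alternative values, 35 stayed close to the reported one and 34 moved; the cause of each move was not tested. The number of members, 236 as reported, was 33 with a −log10 q of 10 or more in both lists, 654 with equal numbers of peaks, 6208 with 50% reciprocal overlap and 155 with peaks within 1 kb merged. It was 1578 when shControl peaks of fold 3.97 or more were set against shStau2 peaks of fold 8.20 or more, a limit 2.07 times higher. It was 125 with no shStau2 peak within 1 kb, 65 with none within 10 kb and 146 without high background. It was 165 with a fold enrichment of 5 or more in both lists and 290 with all contigs. A limit set on both lists also admits shControl peaks whose shStau2 partner falls below it, so most of these 165 were not among the 236. The share at gene ends was 18.2% at the stricter q, 43.5% with reciprocal overlap, and 20.8% and 26.7% with windows of 2.5 and 5 kb. For H3K4me2 under shStau2 the share was 72.0% at the stricter q, 88.5% at 5-fold, 70.4% with equal numbers, 97.1% with reciprocal overlap and 78.2% without high background. Under shControl it was 72.0%, 87.7%, 68.0%, 96.4% and 79.2% for those settings. The median distance to a shStau2 peak was 4999 bases at the stricter q, 10477 at 5-fold, 7636 with equal numbers, 0 with reciprocal overlap, 5969 merged and 3330 without high background. It was 10478 and 26203 with no shStau2 peak within 1 and 10 kb. The high-background share was 9.09% at 5-fold, 23% with reciprocal overlap, 13.8% with no shStau2 peak within 10 kb and 19.5% at 4 times the genome background. The median H3K4me2 ratio ranged from 0.881 to 1.27, lying above 1 with equal numbers (1.06) and reciprocal overlap (1.27). Leaving out high background and the clusters, counting annotated starts, the 4-fold background limit, and the distance, background and H3K4me2 ratio values under the listed settings were chosen after the data were seen. The smallest called H3K4me3 peak held 11 fragments under shStau2 and 12 under shControl, and sites below that were not detectable at this depth.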
